A study of Mus musculus with 12 samples.

Results

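The genes described here are 39 genes of cholesterol and fatty acid synthesis, out of 20792 genes listed for every library. They were chosen by their textbook function, but with earlier results of these data known. Counts set against all genes below are therefore descriptions and not independent support. The 39 comprised 19 enzymes of sterol synthesis, 7 genes of SREBP control and sterol transport, and 13 genes of fatty acid synthesis, elongation and desaturation. RNA was sequenced in bulk from hematopoietic stem and progenitor cells (HSPCs), sorted from bone marrow as lineage-negative, CD127-negative cells bearing c-kit and Sca-1, in 4 groups of 3 libraries. The HSD ICHD7 group came from wild-type male mice that ate a high salt diet (HSD) and then received an intracerebral injection of their own blood, a model of intracerebral hemorrhage (ICH), with cells taken at day 7. The ND ICHD7 group had the same injection and day after a normal diet (ND). The HSD and ND groups ate the same diets and had no injection. The HSD was chow with 8% NaCl with 1% NaCl in the drinking water, and the ND was chow with 0.5% NaCl and tap water, each given for 8 weeks from an age of 4 to 6 weeks. After ICH all mice ate the ND, so the HSD ICHD7 mice were off the HSD when their cells were taken. Each HSD and ND library was a pool of 3 animals, and for the ICHD7 libraries the number pooled is not given in the sources used here. The comparisons address whether the diet left a mark on lipid synthesis genes of HSPCs, and whether such a difference was present after ICH.

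Cells make cholesterol from acetyl-CoA through the mevalonate pathway, which also yields the isoprenoid lipids that anchor proteins to membranes. When sterols in the endoplasmic reticulum run low, SCAP carries the membrane-bound transcription factor SREBP to the Golgi, where the proteases encoded by Mbtps1 and Mbtps2 release its active part, while INSIG proteins hold SCAP back when sterols are plentiful. SREBP proteins raise transcription of sterol and fatty acid synthesis genes together, and dividing blood progenitors need both products for new membranes.

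Reads in listed genes ranged from 12286357 to 27491973 per library after ICH and from 8678304 to 15469971 without ICH. The ICH and no-ICH libraries formed separate sets, since 2 to 29 of the listed genes had 0 reads in a library after ICH, against 1393 to 1755 without ICH, so the effect of ICH and of the library set cannot be told apart. Of the markers that define HSPCs, Kit, which encodes c-kit, had 328.9 to 487.3 CPM (reads scaled to a common library size) and Cd34 215.3 to 392.4 CPM over the 12 libraries. Ly6a, which encodes Sca-1, had only 2.42 to 6.72 CPM. The 10 HSPC-defining genes summed to 886, 1313 and 1354 CPM in HSD ICHD7 libraries, 1468 to 1471 in ND ICHD7, 1512 to 1673 in HSD and 1508 to 1644 in ND, and the library with 886 CPM, HSD ICHD7 replicate 3, was also the deepest. All 16 of a list of macrophage genes were listed, and they summed to 65.3 to 175 CPM in HSD ICHD7, 104.9 to 182 in ND ICHD7, 131, 1006 and 100.3 in HSD replicates 1 to 3, and 549, 172 and 135 in ND replicates 1 to 3, with Marco at 0 in HSD replicates 1 and 3. The 9 erythroid genes summed to 33.5 to 149 CPM in HSD ICHD7, 87.1 to 120.1 in ND ICHD7, 66.0 to 282 in HSD and 81.8 to 342 in ND. HSD replicate 2 and ND replicate 1 thus carried the most macrophage and erythroid RNA, and their part in the results was not tested beyond the values given without them. In bulk RNA, fewer cells of a type and less RNA per cell cannot be told apart.

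All 39 genes had at least 1 read in every library. Apart from Scd1, the lowest count of any of them in a library was 17 reads. Levels were compared between genes as CPM per kb of exon, using the GENCODE annotation of GRCm38. The length joins the exons of all annotated transcripts of a gene, so places in the order depend on it. In ND, Lss had 11.0 CPM over 10.8 kb and Ebp 11.4 CPM over 2.31 kb. In ND libraries the most abundant was Scd2, a stearoyl-CoA desaturase, at 34.0 ± 2.38 CPM per kb (SD, n = 3). It was followed by Acly (ATP citrate lyase, which supplies acetyl-CoA) at 24.6 ± 0.893, Tecr (the last step of each elongation cycle) at 23.4 ± 1.69, Fasn (fatty acid synthase) at 19.5 ± 1.72 and Srebf2 (SREBP-2) at 17.1 ± 0.552 CPM per kb. Acly and Tecr differed by less than the SD of Tecr, whereas Scd2 stood clear of Acly by several SDs. The first sterol synthesis enzyme in that order was Idi1, the isopentenyl diphosphate isomerase, in place 12, at 6.07 ± 1.04 CPM per kb, and the lowest were Lss at 1.02 ± 0.0400, Mvd at 0.770 ± 0.311 and Hsd17b7 at 0.581 ± 0.202. Scd1, the desaturase paralog that dominates in liver, was the lowest of all at 0.140 ± 0.0185.

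**Figure D1:**
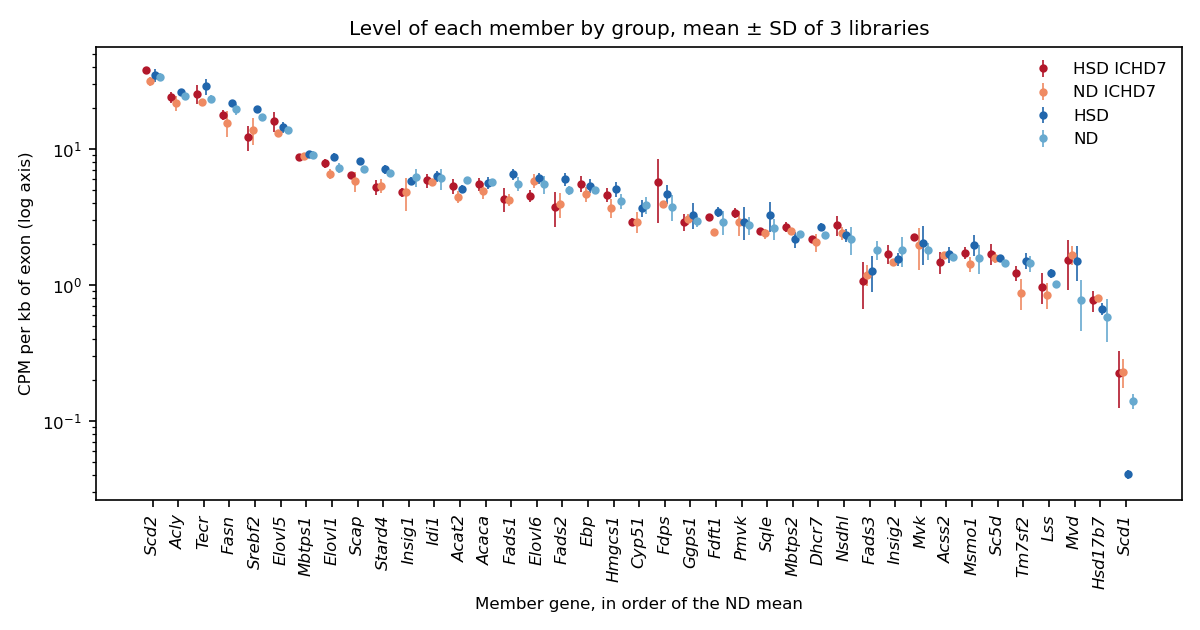
Level of each gene on a log axis (CPM per kb of exon) against gene, in order of the ND mean, with mean ± SD of 3 libraries for each group. Scd2, Acly, Tecr, Fasn and Srebf2 head the order and Scd1 lies alone at the bottom, with its HSD mean at 0.0404 CPM per kb against 0.140 in ND.

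SREBP acts on sterol regulatory elements near gene starts and works there with NF-Y, which binds CCAAT boxes, so the promoters of the genes were read for these letters. RefSeq promoters of GRCm38.p6, 250 bases before to 50 after the start, matched 32 of the 39 genes. CCAAT on either strand (ATTGG on the other) was present in 25 of 32 (78.1%), against 42.5% of 12896 listed genes with a promoter, in 15 of 16 sterol synthesis genes (93.8%), 3 of 6 control genes and 7 of 10 fatty acid genes, and at least 2 copies in 10 of the 16 sterol synthesis genes (62.5%), against 15.8%. The element TCACNCCAC was present on either strand in 1 of 32 (3.12%), that of Hmgcs1, against 1.45%, and the shorter CACNCCAC, which lies inside it, in 4 of 32 (12.5%), against 7.65%. A match is a description of letters and not of binding. The stretches just before a RefSeq start of 5 genes on which the results turn are printed 5′ to 3′, with CCAAT or ATTGG and CACNCCAC, or the longer element in Hmgcs1, in capitals.
Hmgcs1, chr13:119690201-119690350, plus strand: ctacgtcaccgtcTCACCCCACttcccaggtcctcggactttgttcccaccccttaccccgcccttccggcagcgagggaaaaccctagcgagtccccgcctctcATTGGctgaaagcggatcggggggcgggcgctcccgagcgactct
Mvd, chr8:122443423-122443542, minus strand: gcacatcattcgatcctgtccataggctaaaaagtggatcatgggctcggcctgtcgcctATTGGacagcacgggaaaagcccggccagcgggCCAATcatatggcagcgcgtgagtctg
Tecr, chr8:83594492-83594611, minus strand: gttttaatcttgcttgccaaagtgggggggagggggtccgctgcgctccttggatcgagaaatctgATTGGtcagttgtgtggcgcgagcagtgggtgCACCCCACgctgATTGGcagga
Elovl1, chr4:118427973-118428092, plus strand: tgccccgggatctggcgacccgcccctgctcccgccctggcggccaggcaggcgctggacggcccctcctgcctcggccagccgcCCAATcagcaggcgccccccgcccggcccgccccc
Fasn, chr11:120824548-120824667, minus strand: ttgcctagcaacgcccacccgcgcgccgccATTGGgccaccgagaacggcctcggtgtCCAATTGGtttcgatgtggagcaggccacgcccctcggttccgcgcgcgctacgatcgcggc
Hmgcs1 has the full element and a nearby ATTGG, Mvd has an ATTGG and a CCAAT, Tecr has 2 ATTGG and a CACCCCAC, Elovl1 has 1 CCAAT, and in Fasn a CCAAT and an ATTGG overlap in CCAATTGG. Of the control genes, Srebf2 has 1 such box and Scap has 0 in these windows. The 5 genes printed all had a higher mean in HSD than in ND without ICH. Genes with a lower HSD mean had matches too. Acat2 has 2 CACNCCAC, Insig1 has 1 CACNCCAC and 1 CCAAT box, and Fads3 has 2 CCAAT boxes. Fads2, with a higher HSD mean, has 0 of these motifs. Whether matches go with the diet differences was not tested.

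HSD HSPCs without ICH had slightly higher means than ND HSPCs for most of the genes, by a median of 0.12 log2 units on the log2(CPM + 0.5) scale, and no single gene passed the test after adjustment. Of 38 genes with enough reads to test, 31 had a higher mean in HSD (81.58%), against 54.61% of all 16787 genes tested, whose median difference was 0.02. In limma with 3 libraries against 3, an unadjusted p under 0.05 was reached by 7 higher and 1 lower gene, where 3.65% of all genes were higher and 3.28% lower. With Benjamini-Hochberg adjustment over all genes the count was 0 of 38 with limma, edgeR or DESeq2, with a smallest adjusted p of 0.583 in limma, against 0.0774% of all genes. Neutrophil genes leaned the other way, with lower means for 9 of 10 and sums of 38.1 to 43.5 CPM in HSD and 37.0 to 102.9 CPM in ND, and their part in the result was not tested. The HSD range lay wholly above the ND range for 6 genes (Lss, Sc5d, Srebf2, Scap, Elovl1 and Tecr), against 7.07% of all genes, and wholly below it for Acat2, and for Scd1, which was not tested, against 5.75%. The p-values measure the spread between libraries of pooled cells, which is not the spread between single animals.

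**Figure D2:**
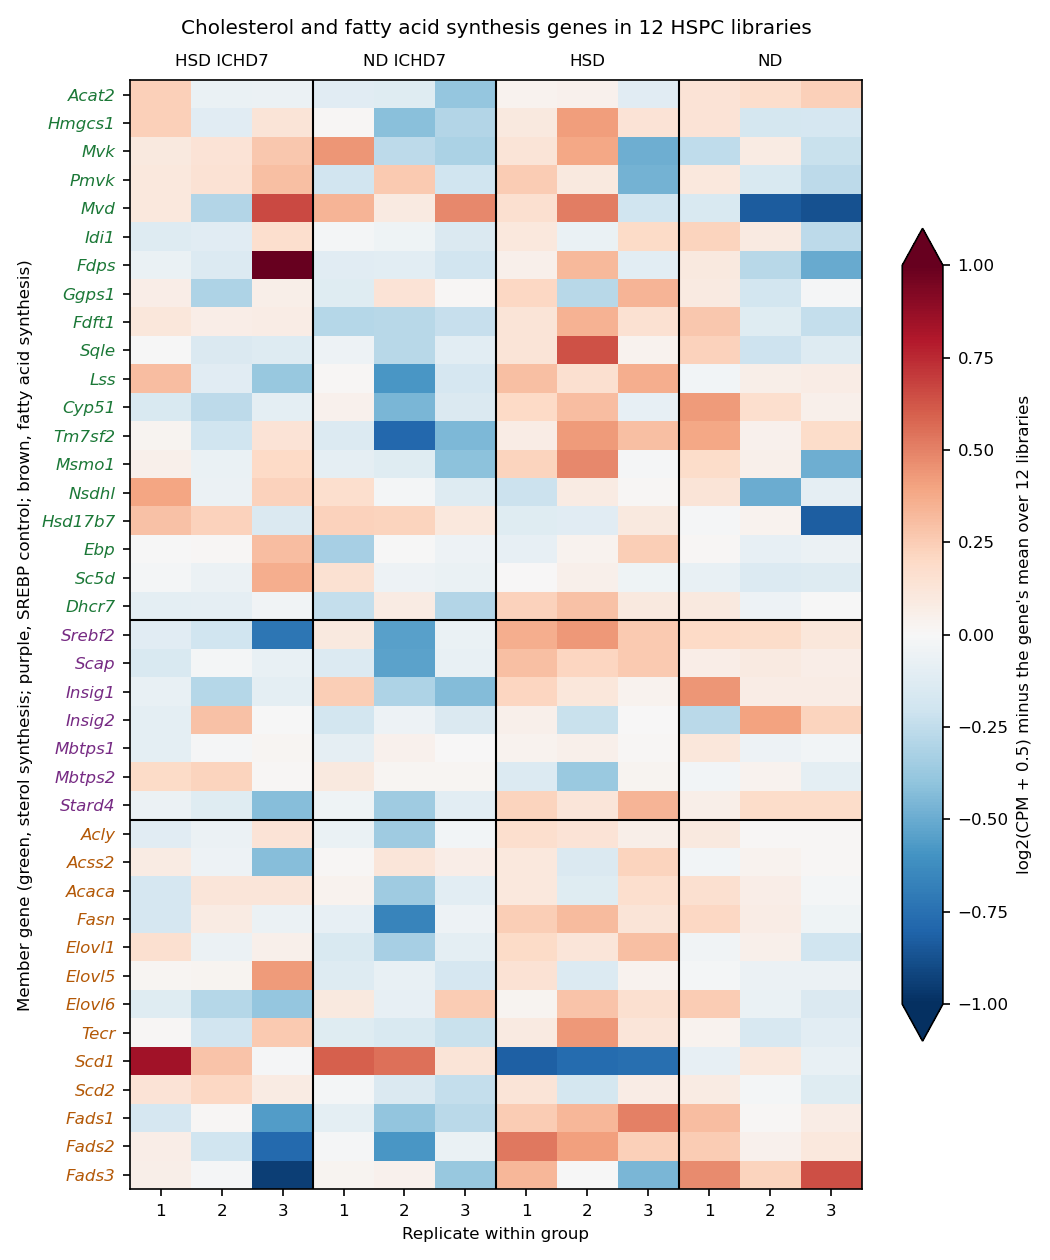
Each row is a gene and each column a library, grouped by HSD ICHD7, ND ICHD7, HSD and ND, and colour shows log2(CPM + 0.5) minus the gene's mean over the 12 libraries. Srebf2, Scap, Stard4, Fads1 and Fads2 have higher means in HSD and ND than after ICH, and Scd1 is lowest in the 3 HSD libraries.

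Among the sterol synthesis enzymes, 17 of 19 had a higher mean in HSD, with a median of 0.14, and 2 had an unadjusted p under 0.05. Mvd (chr8:122433601-122443422, minus strand of GRCm38, as for the positions that follow), mevalonate diphosphate decarboxylase, had 2.71, 3.62 and 2.01 CPM in HSD libraries, against 2.10, 1.12 and 1.08 CPM in ND libraries (replicates 1 to 3). The 2 groups overlapped only through HSD replicate 3 and ND replicate 1, and these values rest on 17 to 45 reads per library. Its difference was 0.77 ± 0.277 log2 units (SE, limma, adjusted p = 0.597). Hmgcs1 (chr13:119690379-119708260, plus strand), which makes the HMG-CoA that enters the pathway, had 21.3, 26.7 and 21.9 CPM in HSD, against 21.8, 17.6 and 17.6 CPM in ND. HSD replicate 2 was the highest, and ND replicate 1 fell within the HSD range. The difference was 0.29 ± 0.126 (limma, adjusted p = 0.688). Sqle, squalene epoxidase, a rate-setting oxygen-dependent step, had 16.1, 23.1 and 15.002 CPM in HSD, against 17.3, 12.6 and 13.4 CPM in ND, a difference of 0.30 with a 95% interval of -0.07 to 0.67. ND replicate 1 again lay above 2 of the HSD libraries. Acat2, the cytosolic thiolase of the first step, went the other way without passing the test, with 13.4, 13.5 and 12.04 CPM in HSD and 14.4, 14.9 and 15.5 CPM in ND (-0.20 ± 0.116, limma, adjusted p = 0.775). Of its 75-base stretches 33.9% are shared with other transcripts, chiefly of Acat3, so its reads are less certain than those of most of the genes. The only other enzyme with a lower HSD mean was Cyp51, lanosterol demethylase, at -0.07 ± 0.138.

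Of the 7 control genes, 4 had a higher mean in HSD, and Srebf2 and Scap had an unadjusted p under 0.05. Srebf2 (chr15:82147181-82205379, plus strand) had 141, 148 and 132 CPM in HSD libraries, against 126, 124 and 118 CPM in ND libraries, and every HSD value was above every ND value. Its difference was small at 0.19 ± 0.0725 log2 units (limma, adjusted p = 0.641), a fold of 1.14. Scap (chr9:110333288-110384950, plus strand) had 62.3, 58.8 and 60.9 CPM in HSD, against 52.9, 53.8 and 52.9 CPM in ND, again without overlap. Its difference was likewise 0.19 ± 0.0733 (limma, adjusted p = 0.657), and 985 bases of its exons lie opposite those of 5830462I19Rik. The INSIG genes, which encode the retention proteins, overlapped between the diets. Insig1 had 19.2, 17.9 and 16.9 CPM in HSD and 22.5, 17.4 and 17.4 CPM in ND, with an interval of -0.35 to 0.20 on the log2 difference. Insig2 had 5.79, 4.72 and 5.60 CPM in HSD and 4.55, 7.56 and 6.600 CPM in ND, with an interval of -0.61 to 0.26. The protease genes Mbtps1 (0.02 ± 0.0728) and Mbtps2 (-0.13 ± 0.116) and the sterol carrier Stard4 (0.09 ± 0.0903) did not pass the test.

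In fatty acid synthesis, 10 of 12 tested genes had a higher mean in HSD, 3 of them with an unadjusted p under 0.05, and Fads3 was lower. Tecr (chr8:83571698-83607971, minus strand), the trans-enoyl-CoA reductase of elongation, had 57.5, 73.3 and 58.8 CPM in HSD, against 55.4, 48.3 and 50.1 CPM in ND. The groups did not overlap, and HSD replicate 2 was far the highest. This gene had the smallest p of the 38 (0.29 ± 0.102, limma, adjusted p = 0.583). Elovl1 (chr4:118428093-118432953, plus strand), which extends saturated very long chain fatty acids, had 23.5, 22.4 and 25.5 CPM in HSD, against 20.1, 21.3 and 17.8 CPM in ND, without overlap (0.27 ± 0.107, limma, adjusted p = 0.671). Fads2 (chr19:10062765-10101746, minus strand), the first desaturase of polyunsaturated fatty acid synthesis, had 21.6, 19.9 and 17.6 CPM in HSD and 17.8, 15.3 and 16.1 CPM in ND (0.26 ± 0.117, limma, adjusted p = 0.716). Only HSD replicate 3 fell inside the ND range. Its neighbor in the same gene cluster, Fads3 (chr19:10041569-10060110, plus strand), had 6.21, 4.82 and 3.38 CPM in HSD and 6.93, 5.72 and 7.87 CPM in ND, with HSD replicate 1 above the lowest ND value (-0.49 ± 0.217, limma, adjusted p = 0.694). The genes that commit carbon to fatty acids did not pass. Acaca, acetyl-CoA carboxylase, had 99.1, 84.7 and 103.5 CPM in HSD and 103.1, 96.5 and 91.1 CPM in ND, and its interval ran from -0.21 to 0.17. Fasn had 239.6, 251 and 221 CPM in HSD and 233, 212 and 195 CPM in ND, with an interval of -0.03 to 0.33.

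**Figure D3:**
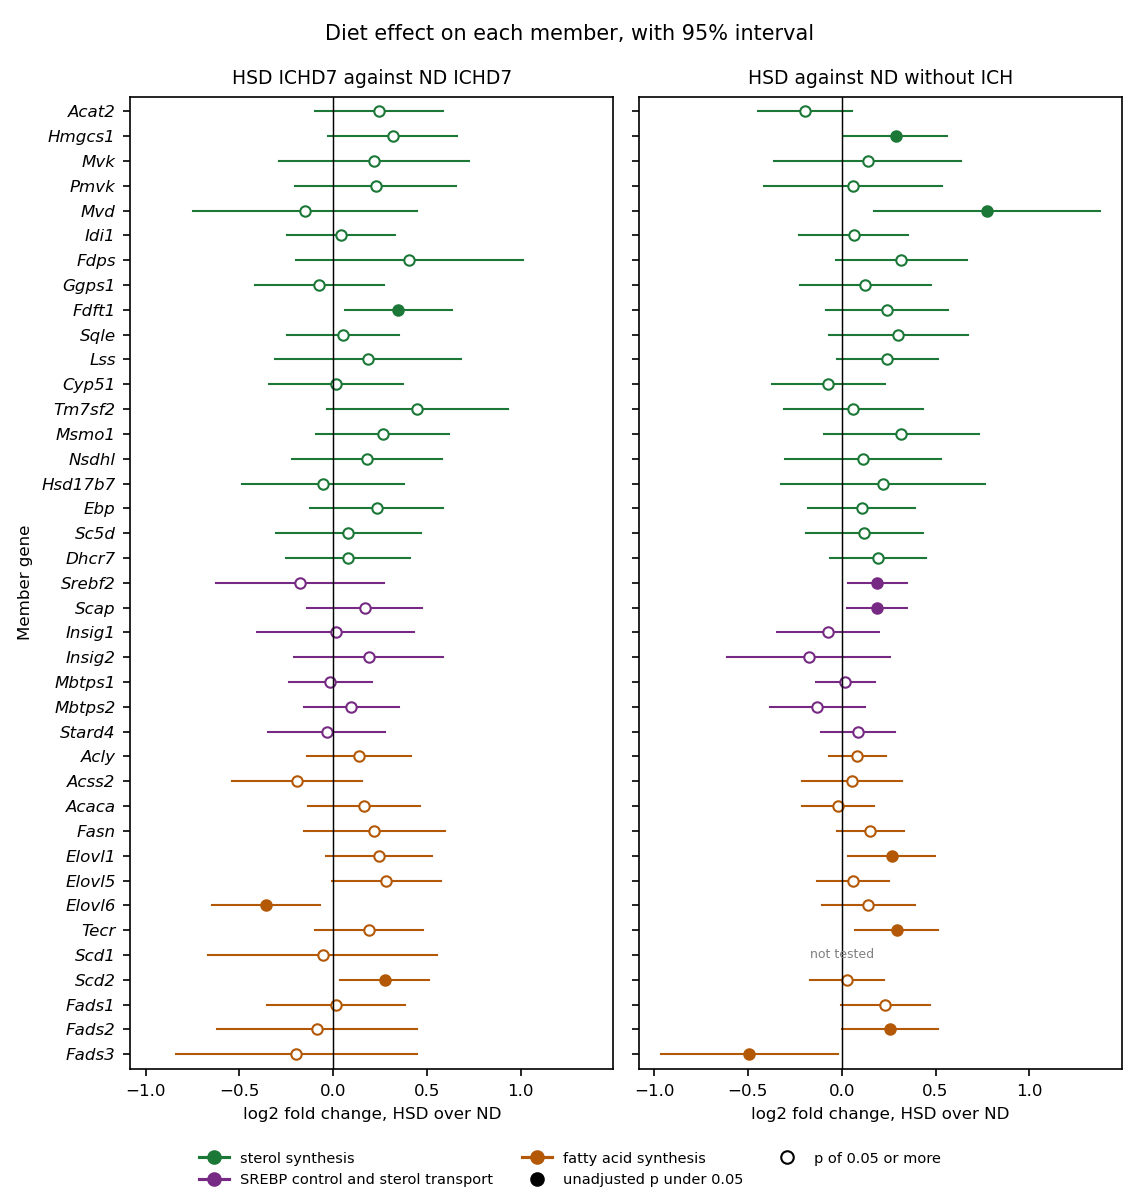
Log2 fold change of HSD over ND for each gene, after ICH and without ICH, with 95% intervals from limma, coloured by role and filled where the unadjusted p was under 0.05. Most points lie to the right of 0 in both panels, and the intervals exclude 0 for 3 of 39 genes after ICH and 8 of 38 without ICH.

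The stearoyl-CoA desaturases introduce the first double bond into saturated fatty acids and are given side by side. Scd2 had 205, 167 and 198 CPM in HSD and 199, 185 and 173 CPM in ND, with overlap and an interval of -0.17 to 0.22. Scd1 (chr19:44394455-44407879, minus strand), which lies near Scd2 (chr19:44293674-44306864, plus strand), had 0.181, 0.201 and 0.211 CPM in HSD, against 0.630, 0.789 and 0.635 CPM in ND, which is 7 reads in all in HSD against 31 in ND. Every HSD value was below every ND value, and the ratio of HSD to ND was 0.284 with a 95% exact counting interval of 0.105 to 0.657. That interval covers counting error only and not the spread between libraries. Scd1 did not reach 10 reads in 3 of these libraries and so was left out of the test. In the fit without that filter its difference was -0.76 ± 0.0641 log2 units (limma, adjusted p = 0.102). The constant added to CPM before taking logs is larger than every HSD value of Scd1. It makes both the difference and the spread between libraries smaller, so this difference and its SE are not read against the ratio. The Scd2 level per kb was 743.6 to 1016 times the Scd1 level in HSD libraries and 210.4 to 283 times in ND libraries.

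These diet differences depended on which libraries were counted. ND replicate 1 was the highest of its group for 15 of the 19 sterol synthesis genes and HSD replicate 2 for 13 of 19, and these were the libraries with the most macrophage RNA. The other lists differed. ND replicate 1 was highest for 3 of 7 control genes and 9 of 13 fatty acid genes, and HSD replicate 2 for 2 of 7 and 3 of 13. Summed over the 19 genes, the libraries held 228, 249 and 222 CPM in HSD, against 190.0 to 233 CPM in ND. The 7 control genes summed to 386, 382 and 378 CPM in HSD and 367, 357 and 349 CPM in ND, without overlap, and the 13 fatty acid genes to 933, 896 and 904 CPM in HSD and 909, 835 and 801 CPM in ND. Without both ND replicate 1 and HSD replicate 2, 13 higher and 0 lower genes reached an unadjusted p under 0.05, where 6.64% of all genes were higher and 4.40% lower, and the median was 0.17. The 13 were Mvd, Hmgcs1, Fdps, Ggps1, Fdft1, Srebf2, Scap, Tecr, Elovl1, Fasn, Scd2, Fads1 and Fads2. In that fit Mvd differed by 0.83 (limma, adjusted p = 0.278) and Fads1, the desaturase that acts after Fads2 on polyunsaturated fatty acids, by 0.34 (limma, adjusted p = 0.263). Without ND replicate 1 alone, 14 were higher and 0 lower, where 5.36% of all genes were higher and 3.44% lower. Without ND replicate 3 only Tecr was higher and 0 were lower, where 2.19% of all genes were higher and 2.32% lower, and without ND replicate 2 Elovl1 was higher and Fads3 lower, where 1.90% of all genes were higher and 1.91% lower. Leaving out HSD replicate 1 gave 4 higher genes and 1 lower, where the shares of all genes were 3.53% and 3.64%. Leaving out HSD replicate 2 also gave 4 and 1, with shares of 3.42% and 3.76%. Without HSD replicate 3, 9 genes were higher and 0 lower, with shares of 4.17% and 3.81%.

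Other genes of the same pathways are set here against all genes tested, of which 54.61% had a higher HSD mean. An unadjusted p under 0.05 was reached by 3.65% upward and by 3.28% downward. Of a list of 22 listed genes of fatty acid elongation, activation and supply, 20 were tested, 16 had a higher HSD mean (80%), 0 passed at that threshold in either direction, and the median was 0.06. The smallest p among them belonged to Hacd4, a dehydratase-family gene of elongation (-0.22, limma, adjusted p = 0.721), and Acsl1, which activates fatty acids (0.17, adjusted p = 0.766). Of 26 genes of isoprenoid use, sterol handling and sterol-regulated protein degradation, 21 had a higher HSD mean (80.77%), 1 was higher and 0 lower at that threshold, and the median was 0.08. That gene was Aup1, a lipid droplet and endoplasmic reticulum degradation protein (0.33 ± 0.0979, limma, adjusted p = 0.486). Rabggta, a subunit of the enzyme that prenylates Rab proteins, followed at 0.25 (limma, adjusted p = 0.746).

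After ICH, the HSD ICHD7 libraries again had higher means than ND ICHD7 libraries for most of the genes, 28 of 39 (71.79%), against 45.84% of all 20079 genes tested. The median was 0.14 log2 units, against -0.03 over all genes, and leaving out 1 library moved it to between 0.05, without ND ICHD7 replicate 2, and 0.15, without ND ICHD7 replicate 1. At an unadjusted p under 0.05, Fdft1 and Scd2 were higher and Elovl6 lower, where 5.42% of all genes were higher and 10.2% lower. With DESeq2's size factors in place of the deposited scaling 6 were higher and 1 lower, where 7.24% of all genes were higher and 9.05% lower. After adjustment the count was 0 of 39 with limma, edgeR or DESeq2, with a smallest adjusted p of 0.273 in limma, against 0% of all genes, 3134 of which had an unadjusted p under 0.05. All 10 HSPC-defining genes had lower means in HSD ICHD7, 4 with an unadjusted p under 0.05, as did 15 of 16 macrophage genes, and their part in the results was not tested. The HSD ICHD7 range lay above the ND ICHD7 range for 6 genes (Acat2, Fdft1, Msmo1, Elovl1, Elovl5 and Scd2), against 10% of all genes, and below it for Elovl6, against 13.3%.

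Fdft1 (chr14:63145150-63179578, minus strand), squalene synthase, which commits farnesyl diphosphate to sterols, had 13.5, 13.1 and 13.1 CPM in HSD ICHD7 libraries, against 10.1, 10.2 and 10.6 CPM in ND ICHD7 libraries. The values within each group were close and the groups were apart (0.35 ± 0.127, limma, adjusted p = 0.275). Its exons overlap 774 bases of Ctsb on the other strand, and 5.21% of its 75-base stretches occur in other transcripts. Scd2 had 207, 217 and 199.7 CPM in HSD ICHD7, against 186, 170.1 and 159.5 CPM in ND ICHD7, without overlap (0.27 ± 0.105, limma, adjusted p = 0.282). Elovl6 (chr3:129532355-129638495, plus strand), which extends palmitate to stearate, had 32.0, 28.5 and 26.6 CPM in HSD ICHD7, against 37.3, 33.0 and 41.8 CPM in ND ICHD7. Its groups were apart by less than 1 CPM at their nearest values (-0.36 ± 0.128, limma, adjusted p = 0.273). Fdft1, Scd2 and Elovl6 each kept an unadjusted p under 0.05 in only 3 of the 6 fits with 1 library left out. Without HSD ICHD7 replicate 3, the library with low HSPC genes, these differences were 0.35, 0.30 and -0.29, each still with an unadjusted p under 0.05. The same library held 37.6 CPM of Fdps, farnesyl diphosphate synthase, against 17.4 and 16.6 CPM in the other HSD ICHD7 libraries and 16.0 to 17.0 CPM in ND ICHD7. The Fdps difference was 0.41 with it and 0.03 without it.

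The remaining control points overlapped between the diets after ICH. Hmgcs1 had 23.5, 18.3 and 21.7 CPM in HSD ICHD7 and 19.98, 14.7 and 16.2 CPM in ND ICHD7, with a difference of 0.32 and an interval of -0.03 to 0.66. Srebf2 had 101.3, 95.2 and 66.1 CPM in HSD ICHD7 and 117, 74.9 and 104.9 CPM in ND ICHD7, with an interval of -0.63 to 0.27, and Scap had 45.6, 50.04 and 48.0 CPM in HSD ICHD7 and 45.9, 34.8 and 48.0 CPM in ND ICHD7. The spread of Srebf2 among libraries was thus wider after ICH, with SDs of 18.8 and 21.9 CPM in HSD ICHD7 and ND ICHD7, against 8.30 and 3.96 CPM in HSD and ND. Insig1 had 15.6, 13.5 and 15.3 CPM in HSD ICHD7 and 19.6, 13.2 and 12.04 CPM in ND ICHD7, and Insig2 had 5.19, 6.95 and 5.56 CPM in HSD ICHD7 and 4.86, 5.37 and 4.99 CPM in ND ICHD7. Sqle had 14.6, 13.2 and 13.4 CPM in HSD ICHD7 and 14.1, 12.002 and 13.6 CPM in ND ICHD7. For the fatty acid control points the picture was the same. Acaca had 81.7, 100.1 and 100.2 CPM in HSD ICHD7 and 94.2, 72.0 and 85.4 CPM in ND ICHD7, and Fasn had 179, 214 and 194 CPM in HSD ICHD7 and 190.2, 127 and 195 CPM in ND ICHD7. ND ICHD7 replicate 2 was the lowest library of its group for Hmgcs1, Srebf2, Scap, Acaca and Fasn. Among the other pathway genes, 13 of 22 in the fatty acid list had a higher HSD ICHD7 mean and Hacd4 was lower (-0.54 ± 0.148, limma, adjusted p = 0.256), with Acacb next (-0.42, adjusted p = 0.337). In the isoprenoid and sterol handling list 21 of 26 had a higher mean, and 4 higher and 1 lower passed at an unadjusted p under 0.05 (5.42% and 10.2% of all genes), led by Tmem97, a sterol-responsive membrane protein (0.58, limma, adjusted p = 0.275), and Dhdds, of dolichol synthesis (0.35, adjusted p = 0.278).

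The comparison after ICH and the one without ICH share no library. Means were higher with HSD in both for 22 of 38 genes (57.9%), against 34% of all genes, and lower in both for 1. Higher means were common in each comparison alone, 31 of 38 without ICH and 28 of 39 after ICH. For sterol synthesis they were 17 of 19 without ICH and 16 of 19 after ICH. Such counts alone would give many genes higher in both, so the shared counts are not read as separate support. Of the 19 sterol synthesis enzymes 14 were higher in both (73.7%), against 1 of the 7 control genes and 7 of 12 fatty acid genes. Their medians were 0.19 after ICH and 0.14 without ICH for sterol synthesis, 0.01 and 0.02 for control genes, and 0.14 and 0.11 for fatty acid genes. The enzymes with higher means in both included Hmgcs1, Fdps, Fdft1, Sqle, Lss, Msmo1 and Dhcr7, although most of their intervals crossed 0. After ICH, Sqle differed by only 0.05 and Dhcr7 by 0.08, and Fdps by 0.03 without HSD ICHD7 replicate 3. Of the 75-base stretches of Fdps, 23.5% occur in other transcripts, chiefly of Gm43738. The diet effect after ICH minus the diet effect without ICH had an unadjusted p under 0.05 for 4 genes, 2 positive and 2 negative, where 2.22% of all 20393 genes were positive and 6.13% negative, and for 0 after adjustment. These were Elovl6 (-0.50 ± 0.178, limma, adjusted p = 0.533), Acat2 (0.44 ± 0.180, adjusted p = 0.566), Mvd (-0.92 ± 0.401, adjusted p = 0.592) and Scd1 (0.71 ± 0.319, adjusted p = 0.596). Scd1 passed the filter on reads in this fit of 12 libraries only through the other groups, since no HSD library without ICH reached 10 reads. The Scd1 difference is therefore not read against the shares of all genes. For Elovl6 the HSD libraries without ICH had 35.5, 42.6 and 38.98 CPM and the ND libraries 41.6, 33.3 and 31.5 CPM, which overlapped. Acat2 had 15.5, 12.5 and 12.5 CPM in HSD ICHD7 and 12.03, 12.002 and 9.91 CPM in ND ICHD7, the opposite order of its values without ICH. Mvd had 2.60, 1.85 and 4.05 CPM in HSD ICHD7 and 3.16, 2.57 and 3.52 CPM in ND ICHD7, and Scd1 had 1.64, 0.961 and 0.686 CPM in HSD ICHD7 and 1.31, 1.25 and 0.808 CPM in ND ICHD7, both with overlap.

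**Figure D4:**
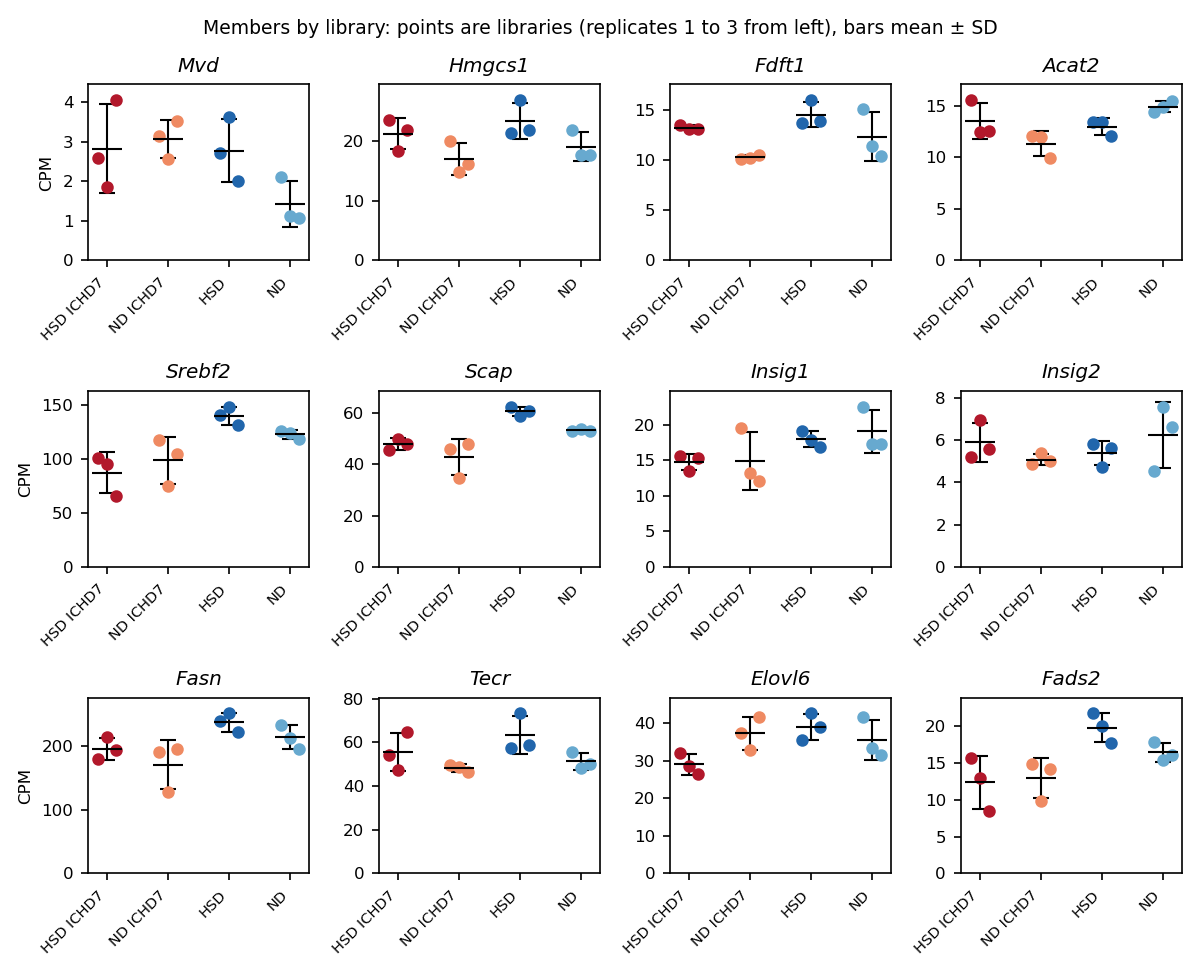
CPM of 12 of the genes in each library, with panels for single genes, groups from left to right (HSD ICHD7, ND ICHD7, HSD and ND), points for replicates 1 to 3 and bars for mean ± SD. Srebf2 and Scap are highest in HSD and lower after ICH, Fdft1 separates HSD ICHD7 at 13.1 to 13.5 from ND ICHD7 at 10.1 to 10.6 CPM, and Mvd is lowest in ND.

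Set against the libraries without ICH, both ICH groups had lower means for most of the genes, and of the 3 lists the control genes had the lowest medians, -0.28 in HSD mice and -0.31 in ND mice. In HSD ICHD7 against HSD, 26 of 39 genes had a lower mean, with a median of -0.13, against -0.01 over all 18082 genes tested, and of -0.09 without HSD ICHD7 replicate 2 and -0.18 without HSD ICHD7 replicate 3. Scd1 passed the filter on reads there only through the HSD ICHD7 libraries and so had to differ, and it is left aside in the counts that follow. An unadjusted p under 0.05 was reached by 1 higher and 7 lower of the other 38 genes, where 11.8% of all genes were higher and 9.73% lower. After adjustment Srebf2 fell, 1 of 38, where 6.58% of all genes passed in either direction. The HSD ICHD7 range lay below the HSD range for 12 genes, against 14.5% of all genes, and above it for 0, against 14.2%. In ND ICHD7 against ND, 27 of 39 had a lower mean, with a median of -0.12, against 0.01 over all 19387 genes tested, and of -0.06 without ND replicate 1 and -0.195 without ND replicate 3. In that comparison 2 higher and 9 lower genes reached the same threshold, where 18.1% of all genes were higher and 10.3% lower. After adjustment only Mvd rose, 1 of 39, where 16.7% of all genes passed. The ND ICHD7 range lay below the ND range for 12 genes, against 14.3% of all genes, and above it for 4, against 19.1%. These are differences between 2 library sets as well as between ICH and no ICH, which cannot be told apart. Mature neutrophil genes moved with the same split in HSD mice, with 10 of 11 listed, sums of 70.0 to 78.9 CPM in HSD ICHD7 and 38.1 to 43.5 CPM in HSD, and 7 of 10 higher at an unadjusted p under 0.05. HSPC-defining genes had lower means after ICH for 9 of 10 in each diet, 7 of them with an unadjusted p under 0.05 in HSD mice and 0 in ND mice, and macrophage genes for 15 of 16 in HSD mice and 14 of 16 in ND mice. Their part in these results was not tested.

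**Figure D5:**
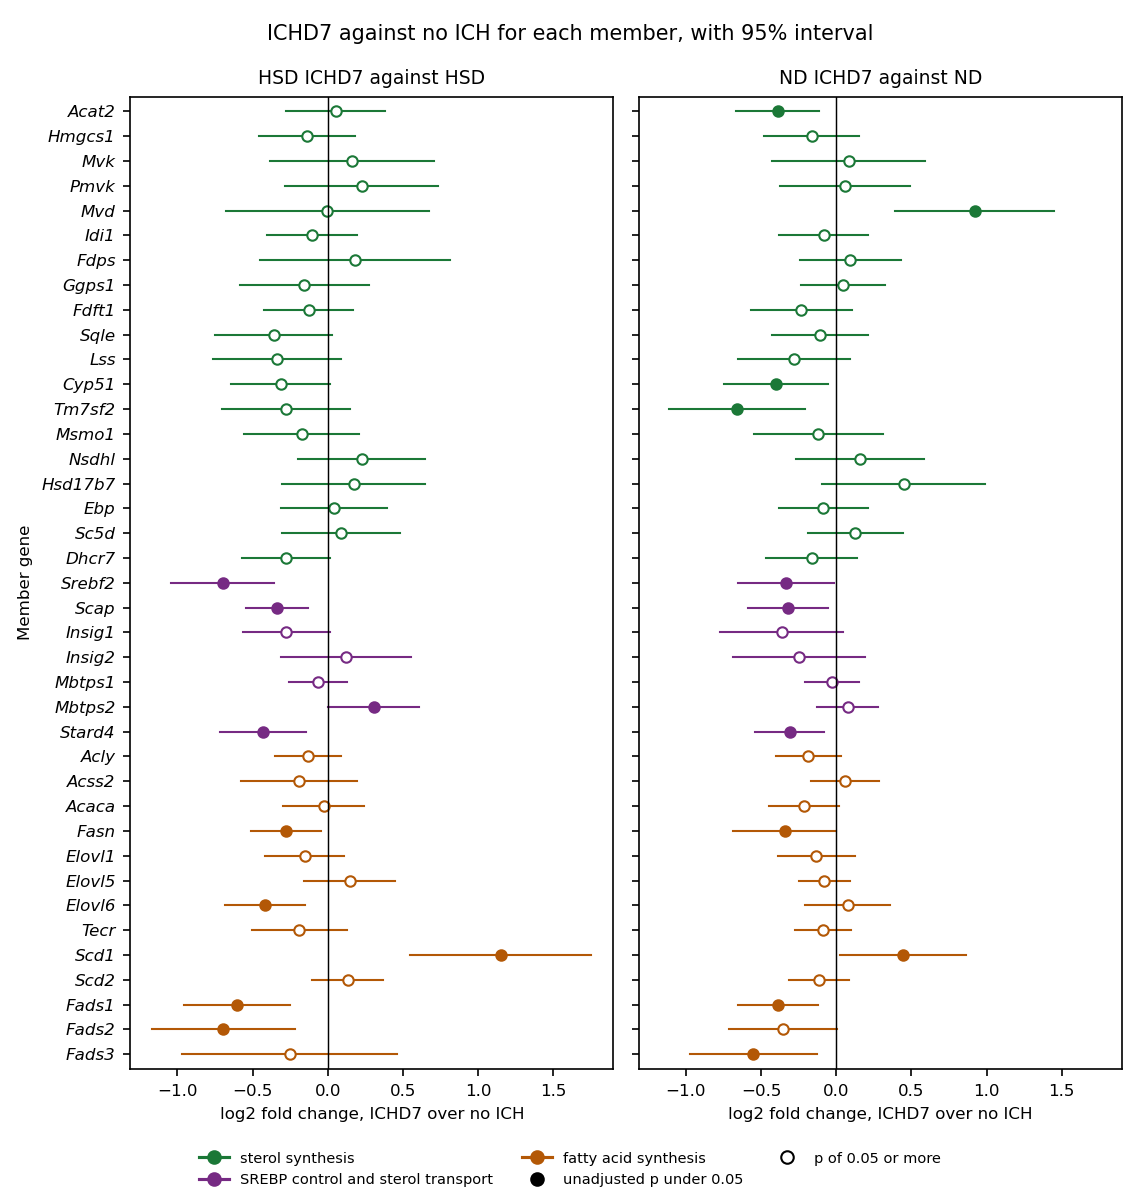
Log2 fold change of ICHD7 over no ICH for each gene, in HSD and in ND mice, with 95% intervals from limma, coloured by role and filled where the unadjusted p was under 0.05. Srebf2, Scap, Stard4, Fasn and Fads1 are filled and left of 0 in both panels, and Scd1 is filled and right of 0 in both. In HSD mice Scd1 passed the filter on reads only through the HSD ICHD7 libraries and so had to differ.

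Srebf2 had 101.3, 95.2 and 66.1 CPM in HSD ICHD7, against 141, 148 and 132 CPM in HSD, and all ICH values were below all values without ICH (-0.70 ± 0.153, limma, adjusted p = 0.0272). The adjusted p of Srebf2 was 0.0109 without HSD ICHD7 replicate 3, with a difference of -0.51. It was over 0.05 when any of the other 5 libraries was left out, from 0.0797 to 0.112, and with the stated filter of CPM above 10 it was 0.102. In ND mice Srebf2 had 117, 74.9 and 104.9 CPM in ND ICHD7, against 126, 124 and 118 CPM in ND (-0.33 ± 0.143, limma, adjusted p = 0.156). Here ND ICHD7 replicate 1 came within 1 CPM of the lowest ND library. Scap had no overlap in either diet, with differences of -0.34 ± 0.0912 in HSD mice (limma, adjusted p = 0.0616) and -0.32 ± 0.118 in ND mice (adjusted p = 0.102). Stard4 had 32.2, 30.9 and 24.9 CPM in HSD ICHD7 and 39.4, 36.5 and 42.7 CPM in HSD (-0.43, adjusted p = 0.0868, limma). It had 32.5, 26.2 and 31.1 CPM in ND ICHD7 and 34.9, 38.3 and 38.2 CPM in ND (-0.31, adjusted p = 0.0712, limma). Fads1 had 21.5, 24.5 and 16.3 CPM in HSD ICHD7 and 29.1, 30.7 and 34.7 CPM in HSD (-0.60, limma, adjusted p = 0.0545), and 22.6, 18.3 and 20.04 CPM in ND ICHD7 and 30.2, 24.5 and 25.6 CPM in ND (-0.39, limma, adjusted p = 0.0502). With Fasn (-0.28 in HSD mice and -0.34 in ND mice), these made 5 genes lower at an unadjusted p under 0.05 in both diets (12.8%), against 4.39% of all genes tested in both, and 3 of the 5 belonged to the 7 control genes. Scd1 was the 1 gene higher in both, and its place there rests on the filter in HSD mice, so it is not read against the 7.40% of all genes. No gene of the 39 had an adjusted p under 0.05 in both diets, against 904 of all 17822 genes.

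Mvd in ND mice had an adjusted p under 0.05 and a higher value after ICH. Scd1 in HSD mice did too, but it passed the filter on reads only through the HSD ICHD7 libraries. The p-values of Scd1 there are therefore not read as support. Both genes were at the low end of the levels. Mvd had 3.16, 2.57 and 3.52 CPM in ND ICHD7, against 2.10, 1.12 and 1.08 CPM in ND, without overlap (0.92 ± 0.236, limma, adjusted p = 0.0227). The adjusted p of Mvd was 0.132, 0.0748 and 0.153 without ND ICHD7 replicate 1, 2 and 3, 0.0859 and 0.0874 without ND replicate 2 and 3, and 0.00380 without ND replicate 1. In HSD mice Mvd differed by -0.0020 ± 0.299, with 2.60, 1.85 and 4.05 CPM in HSD ICHD7 and 2.71, 3.62 and 2.01 CPM in HSD. The ND group without ICH thus had the lowest Mvd mean of the 4 groups, 1.43 CPM, against 2.83 in HSD ICHD7, 3.08 in ND ICHD7 and 2.78 in HSD. Scd1 had 56 reads in HSD ICHD7 against 7 in HSD, a ratio of 5.16 with a 95% exact counting interval of 2.34 to 13.4 (1.15 ± 0.269, limma, adjusted p = 0.0356). The constant added to CPM again makes the limma difference smaller. On recovered reads the Scd1 difference was 2.41 log2 units with edgeR and 2.5 with DESeq2. The adjusted p of Scd1, of a difference that the filter on reads required, ranged from 0.00481 to 0.135 over 13 alternatives. Without HSD replicate 1, 2 or 3 it was 0.135, 0.0972 and 0.108, and without any 1 of the HSD ICHD7 libraries it did not pass the filter. In ND mice Scd1 had 52 reads in ND ICHD7 against 31 in ND, a ratio of 1.67 with an interval of 1.05 to 2.69 (0.44, limma, adjusted p = 0.153). The intervals on these ratios cover counting error only and not the spread between libraries. The lowest Scd1 level of the 4 groups was thus that of HSD without ICH, and the Scd2 level per kb was 112.9 to 260.5 times the Scd1 level in HSD ICHD7 and 121.5 to 176.9 times in ND ICHD7.

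Below Srebf2, the enzymes themselves were less uniform after ICH. Of 19 sterol synthesis enzymes, 11 had a lower mean in each diet, with medians of -0.10 in HSD mice and -0.08 in ND mice. The share with a higher mean was 42.11% in each diet, against 49.32% of all genes in HSD mice and 50.82% in ND mice. In both diets 9 were lower (47.4%), against 36.4% of all genes. In ND mice Acat2 (-0.39 ± 0.123), Cyp51 (-0.40 ± 0.155) and Tm7sf2, a sterol reductase (-0.66 ± 0.202), were lower at an unadjusted p under 0.05, with adjusted p of 0.0590, 0.121 and 0.0511 (limma). Of all genes 10.3% were lower at that threshold. Of the bases of Tm7sf2 exons, 532 are shared with Vps51 on the same strand. In HSD mice none of the 19 had an unadjusted p under 0.05, with Cyp51 at -0.31 (limma, adjusted p = 0.257) and Dhcr7, the final reductase to cholesterol, at -0.28 (adjusted p = 0.251). Among fatty acid genes, Elovl6 (-0.42 ± 0.118, limma, adjusted p = 0.0723) and Fads2 (-0.69 ± 0.210, adjusted p = 0.0939) were lower in HSD mice and Fads3 (-0.55 ± 0.189, adjusted p = 0.0799) in ND mice at an unadjusted p under 0.05. Mbtps2 was higher in HSD mice (0.30 ± 0.134, limma, adjusted p = 0.228), and 27.6% of its 75-base stretches occur in other transcripts, chiefly of the intronless Yy2 gene inside it. The other pathway genes split between the lists. Of the 22 fatty acid supply genes, 12 had a higher mean in ND ICHD7 than in ND, and 4 higher and 0 lower reached an unadjusted p under 0.05, where 18.1% of all genes were higher and 10.3% lower. The 4 included Acsl6 (1.60, limma, adjusted p = 0.000195) and Elovl2 (1.319, adjusted p = 0.000583), which passed the filter on reads only through the ND ICHD7 libraries and so had to differ. In HSD mice 2 of 21 were higher and 0 lower, where 11.8% of all genes were higher and 9.73% lower. They were Acsl6 (0.95, limma, adjusted p = 0.134), which again passed the filter only through the ICH libraries, and Acsl1 (0.39, adjusted p = 0.165). Of the 26 isoprenoid and sterol handling genes, 20 had a lower mean in ND ICHD7 than in ND, with 1 higher and 2 lower past that threshold (18.1% and 10.3% of all genes), led by Soat2, a cholesterol esterifying enzyme, which rose (0.78, limma, adjusted p = 0.0441), and Ubxn6 (-0.29, adjusted p = 0.0869). In HSD mice 15 of them had a lower mean in HSD ICHD7 than in HSD, with 4 higher and 4 lower (11.8% and 9.73% of all genes), led by Por, the electron donor of Cyp51 (-0.48, adjusted p = 0.0847), and Rabggta (-0.43, adjusted p = 0.131).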

How the data were processed

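HSPC RNA was sequenced in 12 libraries, 3 for each of 4 groups named by the sample labels. Per the labels and the study's methods, the authors prepared stranded SMART-Seq libraries, aligned reads to mm10 with Rsubread, counted them with featureCounts and scaled them with edgeR 3.24.3 by TMM, and the deposited values are CPM (reads scaled to a common library size) over the TMM-adjusted library size. The gene annotation and the strand setting of the counting are not given in the sources used here, so reads of a gene and its antisense partner may not be told apart. The stated filter of CPM above 10 was not seen in the files, which list genes below it. The low values are whole multiples of what 1 read is worth (tolerance 0.01 read), so reads were recovered for filters and count tests, with less certainty in HSD replicate 2.

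The 39 genes and all lists were chosen with earlier results of these data known. Genes were kept where 3 or more libraries of a comparison held 10 reads or more, and their log2(CPM + 0.5) values went into limma 3.58.1 (trend, R 4.3.3), in a fit of 6 libraries for each of 4 comparisons and a fit of 12 for the difference between the diet effects, and p-values were adjusted by the Benjamini-Hochberg method over all genes tested. The tests were two-sided. They were also run on simulated data with the same added spread for all genes and changes larger than most reported here. Such data cannot show how the tests treat small differences. Per-library values are given for genes with an unadjusted p under 0.05 in a diet comparison or in the difference between them, and for fixed control points (Srebf2, Scap, Insig1, Insig2, Hmgcs1, Sqle, Fasn, Acaca, Scd1, Scd2). For ICHD7 against no ICH the rule asked for an adjusted p under 0.05 in both diets, which no gene of the 39 met, so Stard4, Fads1 and the others named there were chosen after their values were seen, as were Fdps, Acat2, Cyp51 and Mbtps2 where named outside it. Up to 2 genes of smallest p are named from each other pathway list. Exact counting intervals cover counting error only. Alternatives were pseudocounts of 0.1 and 1, no filter and the stated filter, other scalings, edgeR 4.0.16 and DESeq2 1.42.0 on recovered reads, all 12 libraries in 1 fit, a replicate block, and leaving out libraries. Shared 75-base stretches and exon overlaps came from a GENCODE annotation of GRCm38.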

Additional observations from a re-analysis of the deposited data

Results flagged for a closer look

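The diet effect after ICH differed from that without ICH at an unadjusted p under 0.05 for 4 of the 39 genes (limma, 12 libraries in 1 fit). Of these 2 were positive and 2 negative, where 2.22% of all genes were positive and 6.13% negative. After adjustment the count was 0, against 0% of all genes. Elovl6 differed by -0.50 log2 units (limma, adjusted p = 0.533), with HSD means below ND means after ICH and above them without ICH. Acat2 differed by 0.44 (limma, adjusted p = 0.566), in the opposite order. Mvd differed by -0.92 (limma, adjusted p = 0.592), and ND without ICH held 17 to 30 reads per library. Scd1 differed by 0.71 (limma, adjusted p = 0.596), and HSD without ICH held 2 to 3 reads per library. It passed the filter on reads only through the other groups, so its difference is not read as support. Without HSD ICHD7 replicate 3 the differences were -0.43 for Elovl6, 0.49 for Acat2, -1.18 for Mvd and 0.90 for Scd1. With each of the 12 libraries left out in turn, Elovl6 kept an unadjusted p under 0.05 in 12 fits (limma). Acat2 kept it in 8, and Mvd and Scd1 in 4 each. Over these fits the differences ran from -0.61 to -0.41 for Elovl6 and from 0.34 to 0.49 for Acat2. They ran from -1.18 to -0.70 for Mvd and from 0.47 to 0.90 for Scd1.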

How the results depend on the processing

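Named genes had 843 values under alternatives. Of the 600 for differences with an unadjusted p under 0.05, 0 changed sign and 125 lost that threshold. Of the other 243, 10 gained it (Sqle 2, Fasn 3 and Scd2 1 for HSD against ND, and Hmgcs1 4 for HSD ICHD7 against ND ICHD7) and 18 changed sign, over 7 differences: Insig1 in both diet comparisons, Acaca and Scd2 without ICH, and Scd1, Sqle and Srebf2 after ICH. In HSD against ND without ICH, 8 genes had an unadjusted p under 0.05, against 3 with DESeq2, 3 with all 12 libraries in 1 fit, 13 without both ND replicate 1 and HSD replicate 2, and 1 to 14 when a library was left out. In HSD ICHD7 against ND ICHD7 the count was 3, against 7 with DESeq2's size factors, 7 with all 12 libraries in 1 fit and 1 to 3 when a library was left out. In ND ICHD7 against ND it was 11, against 6 with the stated filter and 7 to 14 when a library was left out. In HSD ICHD7 against HSD it was 9, Scd1 included, and 7 to 12 when a library was left out. For the difference between the diet effects it was 4, Scd1 included, against 2 with the stated filter and 1 to 5 when a library was left out. The median of 0.03 ranged from -0.04 to 0.08. After adjustment, the 1 gene of ND ICHD7 against ND became 3 without a filter or with edgeR, 2 with DESeq2, with a pseudocount of 1 or with all 12 in 1 fit, 0 with the stated filter and 0 to 1 when a library was left out. The 2 genes of HSD ICHD7 against HSD were Srebf2 and Scd1, and Scd1 passed the filter on reads only through the HSD ICHD7 libraries. The count became 5 without a filter, 6 with all 12 in 1 fit and 1 with a pseudocount of 1. It was 0 with the stated filter or without both libraries, and 0 to 1 when a library was left out. The cause of these changes was not tested, apart from fewer genes tested under the stated filter and fewer samples where libraries were left out. Scaling moved the median of all genes by less than 0.1.

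Same-numbered libraries did not deviate together (18 pairs, r of -0.191 to 0.0943), so the numbers were not read as pairs. With the replicate block the counts were 5 for HSD against ND, 1 for HSD ICHD7 against ND ICHD7, 12 for ND ICHD7 against ND, 8 for HSD ICHD7 against HSD and 4 for the difference, and the adjusted counts were 3 for ND ICHD7 against ND and 1 for HSD ICHD7 against HSD.

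Over all genes, adjusted calls for HSD against ND were 13, against 1 without a filter, 65 with DESeq2, 0 with all 12 libraries in 1 fit and 91 without both libraries. Unadjusted calls were 1163, against 759 with the stated filter and 1802 without both libraries. For HSD ICHD7 against ND ICHD7, adjusted calls were 0, against 98 with DESeq2 and 319 with all 12 in 1 fit, and unadjusted calls 3134, against 1229 with the stated filter. For ND ICHD7 against ND they were 3245 adjusted and 5508 unadjusted, against 116 and 2049 with the stated filter. For HSD ICHD7 against HSD they were 1189 and 3893, against 44 and 1992 with the stated filter, and 2384 adjusted without a filter and 2047 with all 12 in 1 fit. For the difference unadjusted calls were 1703, against 496 with the stated filter, 1052 with DESeq2 and 1103 without both libraries.

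With 3 libraries a group, the median width to either side of a 95% interval was 0.27 log2 units for HSD against ND. Reads limit Scd1 and Mvd most. The constant added to CPM also makes limma differences smaller for genes at such low CPM.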
